A study of Mus musculus with 18 samples.

Results

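Isl1, Pou4f1, Pou4f2, Runx1, Tlx3, Shox2, Maf and Prdm12 encode 8 transcription factors through which a sensory neuron acquires and keeps its type. They were taken from the deposited edgeR gene list by symbol and are 8 of 17198 genes in it. RNA came from cultured neurons of the dorsal root ganglion (DRG), which lies beside the spinal cord and holds the cell bodies of sensory neurons, of Mus musculus. The genotypes were wild type (WT) and heterozygous (HET, Dynlrb1 tm1a/+), with 1 tm1a allele of the gene for a light chain of the dynein motor that moves cargo toward the cell body. WT cultures taken at 12, 24 and 48 h and HET cultures taken at the same times had 3 biological replicates each, which gave 18 samples. No treatment is named in the labels, the tm1a allele is not limited to neurons by any driver they name, and strain, age and pooling of animals are not given in the sources used here. Whether replicates came from separate animals is likewise not given, so p-values measure the spread between these cultures.

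The 8 factors act in layers. Isl1, a LIM-homeodomain protein, and Pou4f1, a POU-homeodomain protein also called Brn3a, are found in nearly all sensory neurons, where together they close down earlier developmental programs and open sensory ones; Pou4f2 (Brn3b) is a close relative of Pou4f1. Prdm12, a zinc-finger protein of the PRDM family, is needed for neurons that sense pain and itch, and Runx1 and the homeodomain protein Tlx3 then direct the nonpeptidergic subtypes among them. Shox2, a homeodomain protein, and the leucine-zipper protein Maf belong to neurons that sense touch.

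In GENCODE vM21 on GRCm38 (mm10, the build in the submitters' processing notes) each of the 8 is a protein-coding gene. Isl1 lies at chr13:116298281-116309689, Pou4f1 at chr14:104461676-104467999 and Pou4f2 at chr8:78433010-78436645, all on the minus strand. Tlx3 lies at chr11:33200752-33203589, Shox2 at chr3:66971727-66981771, Maf at chr8:115682942-115707794 and Runx1 at chr16:92601466-92826149, also on the minus strand. Prdm12 lies at chr2:31640037-31655795 on the plus strand. Exons of Prdm12, Maf and Runx1 overlap an antisense gene each (Gm13425, Gm15655 and Gm26626), and exons of Shox2 overlap Rsrc1 on the other strand. Whether the authors' counting used strand is not given in the sources used here. If it did not, reads within the shared exon stretches could not be assigned to these 4 factors or to the overlapping genes. The share of such reads is unknown.

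The 250 bases upstream of the start of 4 members are shown: Isl1, Pou4f1 and Pou4f2 because their RNA rose together at 48 h in WT, and Tlx3 as a homeodomain member whose RNA did not pass the test. The sequences are from RefSeq on GRCm38.p6 and run 5′ to 3′ along the gene. Capitals mark TAAT, the core that many homeodomains bind, read on both strands (ATTA is its reverse complement). The windows are chr13:116309689-116309938 for Isl1, chr14:104468000-104468249 for Pou4f1, chr8:78436648-78436897 for Pou4f2 and chr11:33203589-33203838 for Tlx3, all on the minus strand.
Isl1: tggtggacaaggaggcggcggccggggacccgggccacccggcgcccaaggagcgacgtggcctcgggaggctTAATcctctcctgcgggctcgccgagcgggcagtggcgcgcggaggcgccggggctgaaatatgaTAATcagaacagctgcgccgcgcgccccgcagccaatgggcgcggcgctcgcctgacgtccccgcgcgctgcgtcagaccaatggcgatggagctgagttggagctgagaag
Pou4f1: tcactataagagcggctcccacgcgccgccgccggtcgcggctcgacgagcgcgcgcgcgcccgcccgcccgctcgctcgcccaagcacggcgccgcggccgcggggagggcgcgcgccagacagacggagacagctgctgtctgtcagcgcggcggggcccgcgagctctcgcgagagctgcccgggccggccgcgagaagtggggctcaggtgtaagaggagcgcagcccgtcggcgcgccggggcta
Pou4f2: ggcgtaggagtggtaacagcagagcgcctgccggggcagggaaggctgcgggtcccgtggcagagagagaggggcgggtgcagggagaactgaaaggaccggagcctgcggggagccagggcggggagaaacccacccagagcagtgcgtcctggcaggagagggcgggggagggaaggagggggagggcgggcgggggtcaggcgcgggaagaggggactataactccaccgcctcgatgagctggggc
Tlx3: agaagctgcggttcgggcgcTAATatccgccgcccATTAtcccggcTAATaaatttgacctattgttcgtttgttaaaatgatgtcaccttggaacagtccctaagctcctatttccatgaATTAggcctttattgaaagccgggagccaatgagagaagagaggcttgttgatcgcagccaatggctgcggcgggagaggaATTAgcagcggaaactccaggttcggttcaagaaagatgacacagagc
The windows of Isl1, Pou4f1 and Pou4f2 were rich in G and C, at 71.2%, 78% and 70.8%, against a median of 52.4% over 32851 promoter windows of the same length and 48.8% for Tlx3. TAAT occurred 2 times in the Isl1 window, 5 times in that of Tlx3 and not in those of Pou4f1 and Pou4f2, and 54.9% of all windows held it at least once. A promoter entry matched 7 of the 8 members. Runx1 had 2 entries, 1 for each of its starts, whereas the expression table gives 1 value for the gene. Among the windows not shown, that of Prdm12 had 61.2% G and C and no TAAT, and that of Shox2 55.6% and 1 TAAT. The 2 Runx1 windows had 45.6% with 1 TAAT and 67.6% with none. G and C above the median, and windows without TAAT, were thus not limited to the 3 genes that rose. None of the matched windows held TAATTA, which contains TAAT (4.84% of all windows), TGTGGT, a core bound by Runx proteins (14%), TGANTCA, an AP-1 motif that also lies in the Maf recognition element (6.75%), or TGACGTCA, the cAMP response element (1.55%), on either strand. These matches describe letters, not binding.

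Values are the authors' normalized counts, which had been scaled to nearly equal column totals, so the depth of each library is unknown. The genotype labels were checked on Dynlrb1: its normalized counts ran from 5229 to 6674 in WT cultures and from 2716 to 4087 in HET cultures. Pan-neuronal markers (10 of 10 measured) summed to 6131 to 8874 FPKM in every culture, and markers of glia, fibroblasts, endothelium and blood cells were present too. HET 48 h replicate 3 stood apart. On a line through all genes that runs from the WT 12 h mean at 0 to the WT 48 h mean at 1, it lay at 0.27, while HET 48 h replicates 1 and 2 lay at 0.76 and 0.63, WT 24 h cultures at 0.28 to 0.37 and HET 24 h cultures at 0.30 to 0.53. Its root mean square log2 distance was 0.365 to the WT 24 h mean and 0.580 to the mean of the other HET 48 h cultures. Neutrophil markers summed to 67.3 FPKM in it against 5.81 and 7.59 in replicates 1 and 2, and cycling cell markers to 1.44 FPKM against 9.03 and 5.68. Dynlrb1 was at 3243 in it, within the HET range, and the cause of its position was not tested. Many results at 48 h in HET are therefore given with and without it. Values not marked as without it, among them levels and marker sums, include it.

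The members spanned a wide range of levels per transcript length. In WT at 12 h, Pou4f1 led at 45.4 ± 1.12 FPKM (SD, n = 3), clear of the others, and Tlx3 (32.3), Prdm12 (30.4), Runx1 (26.5) and Isl1 (23.7) followed, each with a range that overlapped that of the next. Maf (6.51 ± 1.17 FPKM; SD, n = 3), Shox2 (1.91 ± 0.82; SD, n = 3) and Pou4f2 (1.06 ± 0.46; SD, n = 3) formed the lower tier, in which Shox2 and Pou4f2 overlapped. By 48 h in WT the order had changed at the top. Isl1 stood first at 84.3 ± 8.41 FPKM (SD, n = 3) and Pou4f1 second at 60.1 ± 5.07 (SD, n = 3), with no overlap between them or with Tlx3 (26.1 to 33.8). Pou4f2 reached 3.77 ± 0.93 FPKM (SD, n = 3), above the range of Shox2 and overlapping that of Maf. In HET at 48 h the Isl1 range, 31.2 to 76.1 FPKM, overlapped that of Pou4f1, 43.3 to 62.6.

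**Figure D1:**
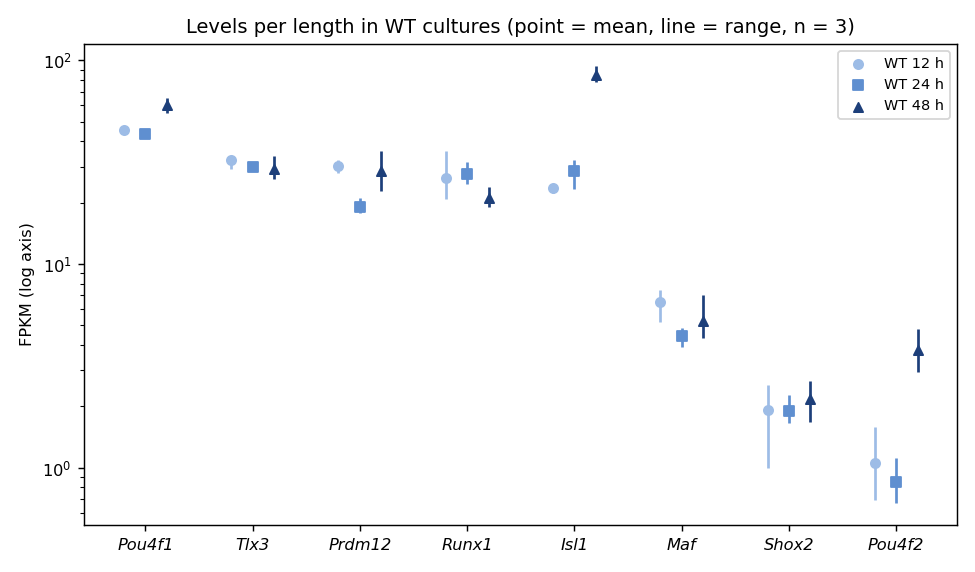
FPKM of the 8 members (x axis) in WT cultures on a log axis, with a point for the mean and a line for the range of 3 cultures at 12, 24 and 48 h. Isl1 moves from 23.7 FPKM at 12 h to 84.3 at 48 h and passes Pou4f1, and Pou4f2 moves from 1.06 to 3.77.

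Time in culture was the setting in which members changed. In WT, 3 of the 8 were higher at 48 h than at 12 h and none was lower: Isl1, Pou4f1 and Pou4f2, the pan-sensory LIM and POU pair and its relative. Over all genes tested 47.1% passed the same threshold (limma with Benjamini-Hochberg adjusted p under 0.05) and 30% passed it as higher, so a count of 3 of 8 is near the background. With quantile normalization the count was 4, as Maf also passed as lower (-0.54, adjusted p = 0.0330, limma). In that fit 7652 of 17198 genes passed, 3485 of them as lower. Leaving out 1 culture gave 3 or 4 members, where 6038 to 8457 of all genes passed. The median log2 fold change was 0.07 over the members and 0.11 over all genes. Both depend on scaling: on the deposited plain adjusted columns they were -0.03 over the members and 0.01 over all genes.

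Isl1 changed little from 12 to 24 h, when it did not pass, and then rose steeply. Its normalized counts in WT were 2564, 2330 and 2569 at 12 h, 3400, 2448 and 3199 at 24 h, and 8217, 9847 and 8450 at 48 h. Every 48 h culture lay above every earlier one, and the 12 h and 24 h ranges overlapped. The 48 h mean was 3.55 times the 12 h mean, a log2 fold change of 1.83 (SE 0.24, adjusted p = 4.33e-05, limma with Benjamini-Hochberg adjustment) on the log2(normalized count + 1) scale. In HET the counts were 2580, 2782 and 2991 at 12 h, 3273, 2613 and 3760 at 24 h, and 7338, 7984 and 3275 at 48 h. Replicates 1 and 2 at 48 h lay above every earlier HET culture, and replicate 3 lay within the 24 h range. The HET change was 1.05 (SE 0.24, adjusted p = 0.0157, limma) with replicate 3 and 1.46 (SE 0.15, adjusted p = 3.17e-05, limma) without it. This HET call was lost when another single culture was left out, namely HET 12 h replicate 2 (adjusted p = 0.0733, limma), HET 48 h replicate 1 (0.0951) or HET 48 h replicate 2 (0.0854). In each of these fits 0 of 17198 genes passed in this comparison, so the loss was not particular to Isl1. The authors' deposited table gives Isl1 a log2 fold change of 1.15 in this comparison with all cultures, and an FDR of 3.73e-05.

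Pou4f1 moved by much less from a high base. Its normalized counts in WT were 7364, 7040 and 7079 at 12 h, 6719, 6753 and 7015 at 24 h, and 8701, 9409 and 10294 at 48 h. The 48 h cultures did not overlap with the earlier ones, and the log2 fold change against 12 h was 0.40 (SE 0.11, adjusted p = 0.00779, limma). In HET the counts were 7444, 7027 and 6882 at 12 h, 7206, 5890 and 6552 at 24 h, and 9868, 9178 and 6828 at 48 h. Replicate 3 at 48 h lay below all 3 HET cultures of 12 h. The HET change was 0.26 (SE 0.11, adjusted p = 0.120, limma) with replicate 3 and 0.42 (SE 0.09, adjusted p = 0.00307, limma) without it.

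Pou4f2, which with Shox2 was among the least abundant members at 12 h, had normalized counts in WT of 92.2, 120 and 211 at 12 h, 89.3, 103 and 148 at 24 h, and 637, 477 and 393 at 48 h. The 48 h values lay above all earlier ones, with a log2 fold change of 1.89 (SE 0.47, adjusted p = 0.00373, limma). Its HET counts were 98.9, 222 and 156 at 12 h, 155, 91.6 and 118 at 24 h, and 594, 449 and 118 at 48 h. Here too replicate 3 at 48 h fell inside the range of the earlier cultures. The HET change was 1.06 (SE 0.47, adjusted p = 0.130, limma) with it and 1.77 (SE 0.36, adjusted p = 0.00243, limma) without it. In the authors' deposited table Pou4f2 had a log2 fold change of 1.28 in this comparison with all cultures, and an FDR of 0.0216.

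In HET, then, 1 of 8 members (Isl1) was higher at 48 h with all cultures, where 14.2% of all genes passed and 10.6% passed as higher. Without replicate 3 the count was 3 of 8 (Isl1, Pou4f1 and Pou4f2), where 28.4% of all genes passed and 19.8% passed as higher. None of the 8 was lower in either set. On the plain adjusted columns the WT changes at 48 h were 1.72 for Isl1, 0.29 for Pou4f1 and 1.78 for Pou4f2, and the same 3 genes passed. Over all genes 7937 of 17198 passed in that fit, 4177 of them as higher.

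**Figure D2:**
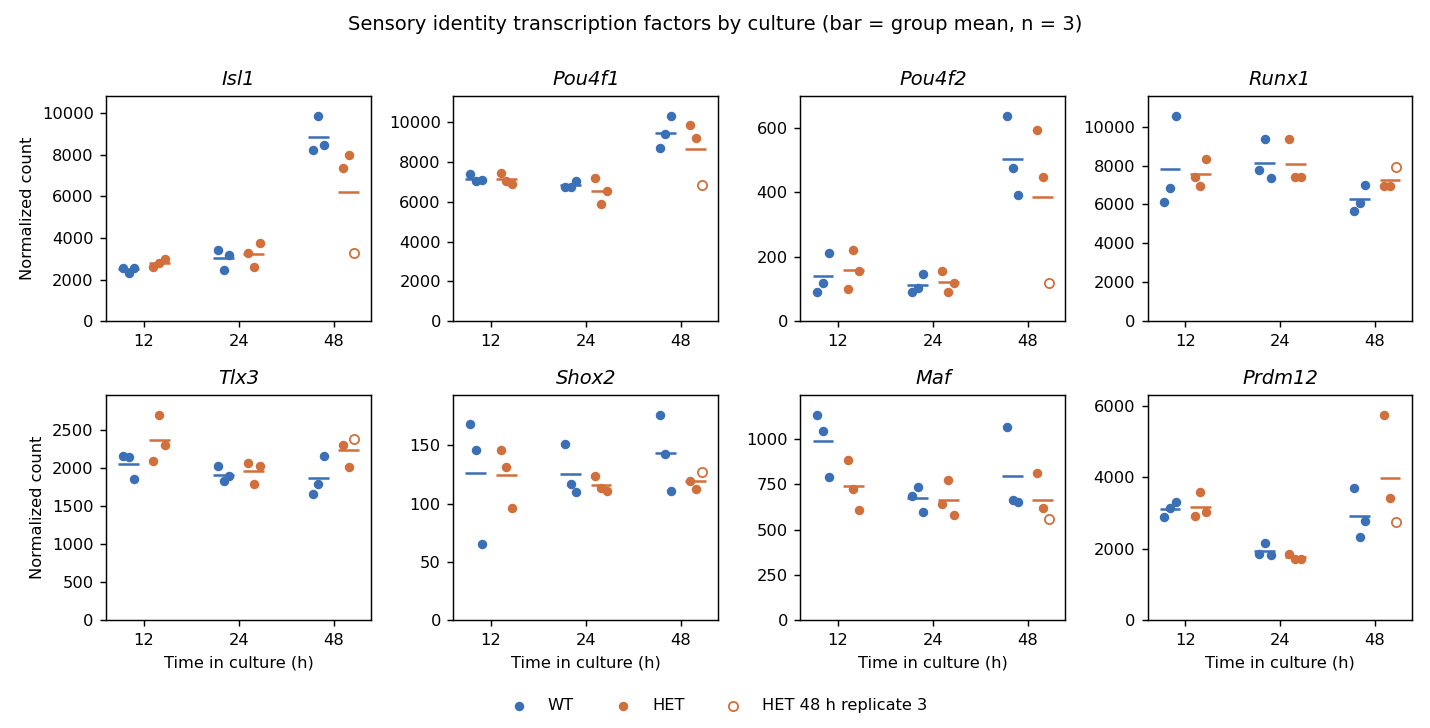
Normalized counts of each member (y axis, starting at 0) by time in culture (x axis, h) in WT and HET, 1 point per culture and a bar for the group mean of 3. The open point is HET 48 h replicate 3, which lies at 3275 for Isl1 and 118 for Pou4f2, beside 24 h cultures and away from the other 48 h ones.

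Among all genes, the 5 cultures of 48 h other than HET replicate 3 lay at 0.63 to 1.16 on the line from WT 12 h to WT 48 h, and they held the 5 highest values of Isl1, of Pou4f1 and of Pou4f2. The 3 genes did not simply follow the position. HET 24 h replicates 1 and 5, at 0.53 and 0.42, had Isl1 counts of 3273 and 3760, against 7984 in HET 48 h replicate 2 at 0.63. Within the 48 h cultures Pou4f1 was highest in WT replicate 3, at 0.81, and Pou4f2 in WT replicate 1, at 1.04, while the farthest culture was WT replicate 2, at 1.16. HET 48 h replicate 3, at 0.27, lay below all 24 h cultures and had values of all 3 genes inside the 24 h range of HET. The WT 12 h and 48 h cultures define the line, so this is a description with no test.

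**Figure D3:**
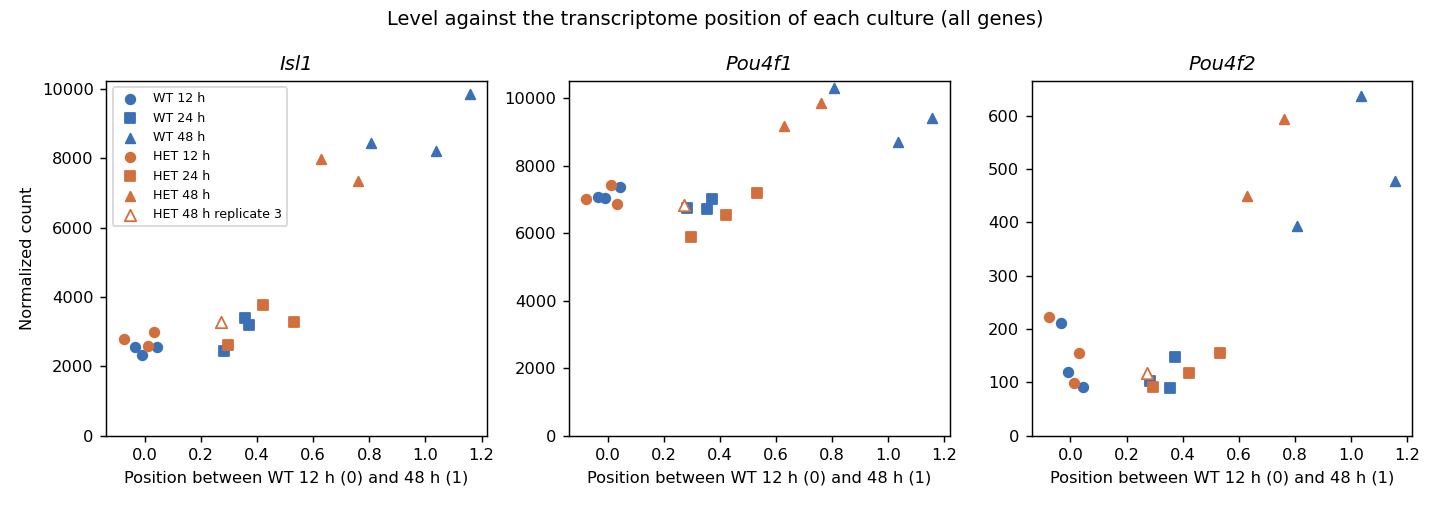
Normalized count (y axis) of Isl1, Pou4f1 and Pou4f2 against the position of each culture among all genes (x axis, 0 at the WT 12 h mean and 1 at the WT 48 h mean), 1 point per culture. The open triangle, HET 48 h replicate 3, lies at 0.27, just below the 24 h squares (0.28 to 0.53), and the other 48 h cultures lie at 0.63 or beyond with higher values.

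Prdm12 followed another course, with a dip at 24 h. Its normalized counts in HET were 2916, 3587 and 3025 at 12 h, 1863, 1716 and 1706 at 24 h, and 5737, 3430 and 2742 at 48 h. All 24 h cultures lay below all others, and the change from 12 to 24 h was -0.84 (SE 0.20, adjusted p = 0.00891, limma). It was the only member of 8 to pass in this comparison, where 18.9% of all genes passed and 5.76% passed as lower. Without HET 12 h replicate 2 the value was -0.75 with an adjusted p of 0.0570 (limma), which is not past the threshold. In WT the counts were 2878, 3150 and 3318 at 12 h, 1859, 2159 and 1828 at 24 h, and 3691, 2329 and 2768 at 48 h. The 12 h and 24 h cultures did not overlap in WT either, and the change was -0.68 (SE 0.20), with an adjusted p of 0.0681 in limma. This WT value passed without HET 48 h replicate 3 (adjusted p = 0.0294, limma) or without HET 48 h replicate 1 (0.0239), since all samples share 1 estimate of spread. The authors' deposited table gives an FDR of 0.0238 for it. At 48 h against 12 h Prdm12 differed by -0.11 (95% interval -0.54 to 0.31) in WT and 0.26 (-0.17 to 0.68) in HET, with adjusted p of 0.671 and 0.396 in limma. The ratio of its 48 h to its 12 h mean in HET was 1.25 with HET 48 h replicate 3 and 1.44 without it, and it passed in neither fit.

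No member passed in WT between 12 and 24 h, where 3.62% of all genes did, and 2 members had an unadjusted p under 0.05 (limma), Prdm12 and Maf. Maf, the touch-neuron factor, had normalized counts in WT of 1129, 1039 and 787 at 12 h, 687, 732 and 594 at 24 h, and 1064, 662 and 652 at 48 h. The 12 h and 24 h cultures did not overlap, with a change of -0.54 (SE 0.20, adjusted p = 0.132, limma). Its HET counts were 882, 722 and 609, then 642, 773 and 577, then 813, 617 and 558, with overlap at all times. At 48 h against 12 h in WT, Maf differed by -0.33 (adjusted p = 0.187, limma), and by -0.57 (adjusted p = 0.0304) without WT 48 h replicate 1.

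Runx1, Tlx3 and Shox2, which direct subtypes, passed in no time comparison with all samples. None of them passed at 48 h in HET without HET 48 h replicate 3 either. Their ratios of the 48 h to the 12 h mean were then 0.92, 0.91 and 0.93. Runx1 had normalized counts in WT of 6143, 6831 and 10540 at 12 h, 7770, 9355 and 7339 at 24 h, and 5655, 6092 and 7023 at 48 h. The spread at 12 h came mostly from replicate 5. Its WT change from 12 to 48 h was -0.29 (95% interval -0.63 to 0.05; adjusted p = 0.151, limma), and -0.45 (adjusted p = 0.0386) without WT 12 h replicate 1. In HET the counts ran from 6972 to 8325 at 12 h, 7422 to 9358 at 24 h and 6937 to 7909 at 48 h, all overlapping, and the change to 48 h was -0.06 (-0.40 to 0.28). Tlx3 had WT counts of 2159, 2137 and 1858 at 12 h, 2022, 1820 and 1889 at 24 h, and 1657, 1784 and 2147 at 48 h, and a change to 48 h of -0.14 (-0.39 to 0.10). In HET its counts were 2094, 2687 and 2296, then 2060, 1793 and 2019, then 2302, 2010 and 2373. The 12 h and 24 h groups did not overlap there, with a change of -0.26 (SE 0.11, adjusted p = 0.116, limma). Shox2 was low throughout, at 65.6 to 176 normalized counts over the 18 samples, and its interval at 48 h against 12 h was wide, -0.34 to 0.85 in WT and -0.63 to 0.56 in HET.

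**Figure D4:**
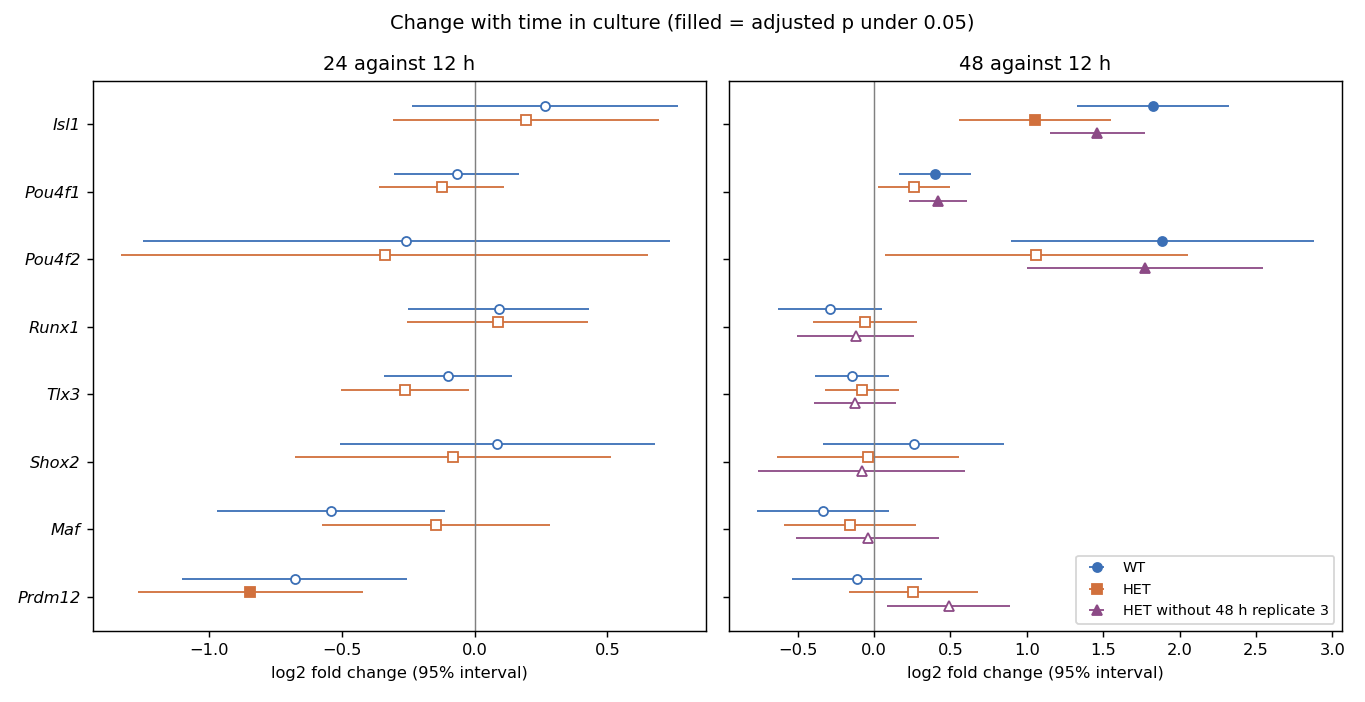
Log2 fold change with its 95% interval (x axis) of each member for 24 h against 12 h (left) and 48 h against 12 h (right), in WT, in HET, and in HET without 48 h replicate 3. Filled marks have an adjusted p under 0.05 in limma: Isl1, Pou4f1 and Pou4f2 at 48 h in WT and in HET without replicate 3, Isl1 at 48 h in HET, and Prdm12 at 24 h in HET.

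Markers of other cell types changed over the same hours. Beside them, 30% of all genes were called higher and 17.1% lower from 12 to 48 h in WT. In HET the shares were 10.6% and 3.62%. In WT from 12 to 48 h the summed FPKM of neutrophil markers (5 of 5 measured, all 5 called lower in limma) went from 6.19-232 to 3.76-5.16. Red cell markers (2 of 5 measured, both lower) went from 1.38-8.57 to 0.11-0.24, and endothelial markers (5 of 5, 3 lower) from 52.6-69.6 to 24.1-34.5. Cycling cell markers (4 of 4, all higher) went from 1.06-1.39 to 6.14-14.6, and fibroblast markers (5 of 5, 3 higher) from 37.7-78.8 to 90.7-134. The remaining lists were mixed. Macrophage markers (7 of 8) summed to 19.6 to 27.1 and then 46.0 to 87.8, mostly from Cd68 (mean 13.8 and 45.2 FPKM); Cd68 and C1qa were called higher and Ptprc lower, at -1.66 (SE 0.46, adjusted p = 0.00747, limma). Satellite glia markers (6 of 6) summed to 452 to 618 and then 224 to 242, with Apoe giving most of the sum at 12 h (mean 404 and 61.7 FPKM); 3 were called lower and Glul higher, at 0.59 (SE 0.09, adjusted p = 0.000140, limma). Schwann cell markers (6 of 6) had 1 higher and 1 lower, and pan-neuronal markers 2 higher and 5 lower, with sums of 6281 to 7967 and 6610 to 7058 FPKM. In HET, neutrophil markers (4 called lower) went from 93.1-235 to 5.81-67.3, red cell markers (2 lower) from 4.57-9.41 to 0.17-3.69, and macrophage markers (1 higher) from 16.6-25.3 to 27.4-43.1. The upper values of neutrophil and red cell markers at 48 h were those of replicate 3. Cycling cell markers (3 higher) went there from 0.76-1.55 to 1.44-9.03, and endothelial markers (1 lower) from 36.7-57.1 to 29.3-43.1. Satellite glia markers (2 lower) went from 373-659 to 226-298, and fibroblast markers (2 higher) from 44.8-67.3 to 80.2-129. Schwann cell markers had 1 lower in HET, and pan-neuronal markers 1 higher and 2 lower. No measured marker of these lists was at 0 in any culture. In bulk RNA fewer cells of a type and less RNA per cell cannot be told apart. Runx1 and Maf are also known in blood and macrophage lineages, and the part of these cells in the values of any member was not tested.

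No member passed the test between genotypes. In HET against WT, 0 of 8 passed at 12 h, at 24 h, at 48 h and in the average over times, where 0.00581%, 0.00581%, 0% and 0.0174% of all genes passed in limma. By unadjusted p under 0.05 the members numbered 0, 0, 2 and 1 in that order, and all genes 1447, 198, 3782 and 2315. By adjusted p in limma the count over all genes at 48 h was 0 with all cultures. It was 931 without WT 48 h replicate 3, 736 without HET 48 h replicate 1 and 513 without HET 48 h replicate 2. It was 188 without HET 24 h replicate 1, 169 without HET 12 h replicate 2, and 0 or 1 without any other single culture. With quantile normalization it was 276. In each of these fits 0 of 8 members passed. The authors' deposited table has no FDR under 0.05 for a member in its HET against WT comparisons. The intervals show what differences remain possible. Averaged over times, Pou4f1 had the narrowest, from -0.21 to 0.06, Tlx3 had 0.03 to 0.30 (adjusted p = 0.316, limma), and Pou4f2 had the widest, from -0.69 to 0.45.

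The member with the lowest unadjusted p was Isl1 at 48 h. The 3 HET cultures (7338, 7984 and 3275) all lay below the 3 WT ones (8217, 9847 and 8450). The difference was -0.61 (SE 0.24, 95% interval -1.11 to -0.11, adjusted p = 0.147, limma). At 48 h same-numbered cultures of the 2 genotypes deviated together, and with the replicate number as a block the same difference had an SE of 0.17 and an adjusted p of 0.0386 (limma), 1 of 8 members in a fit that called 12.3% of all genes. The pairing was chosen from these same data. Without HET replicate 3 the difference was -0.20 (SE 0.15, adjusted p = 0.654), where 0% of all genes passed, and with the block as well it was -0.23 (SE 0.10, adjusted p = 0.233, limma). The Isl1 values in HET replicates 1 and 2 still lay below those of all WT cultures of 48 h. On the line through all genes these 2 HET cultures, at 0.76 and 0.63, also lay before the WT 48 h cultures, at 0.81 to 1.16. The part of this position in the Isl1 difference was not tested. The genotype difference in the change from 12 to 48 h was -0.77 for Isl1 (unadjusted p = 0.0342, adjusted p = 0.548, limma) with replicate 3 and -0.36 (adjusted p = 0.772) without it. In that comparison 0 of 8 members and 0% of all genes passed, and 1 member and 1534 genes had an unadjusted p under 0.05.

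Prdm12 differed in the other direction at 48 h. HET replicates 1, 2 and 3 had 5737, 3430 and 2742 normalized counts, and WT replicates 1, 2 and 3 had 3691, 2329 and 2768. Replicates 1 and 2 were higher in HET and replicate 3 was close to its WT partner, and the groups overlapped. The difference was 0.39 (SE 0.20, adjusted p = 0.260, limma), or 0.62 (SE 0.19, adjusted p = 0.251) without HET replicate 3. With the replicate block the adjusted p was 0.0520, and with the block and without that culture the difference was 0.60 (SE 0.11, adjusted p = 0.0175, limma), the only member of 8 called where 3.86% of all genes were. That last value rests on 2 pairs. Pou4f2 differed by -0.64 at 48 h with HET replicate 3 and 0.07 without it, and Pou4f1 by -0.15 and 0.01, none past the threshold. Tlx3 was at 2302, 2010 and 2373 in HET and 1657, 1784 and 2147 in WT at 48 h, a difference of 0.26 (SE 0.11, adjusted p = 0.191, limma).

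**Figure D5:**
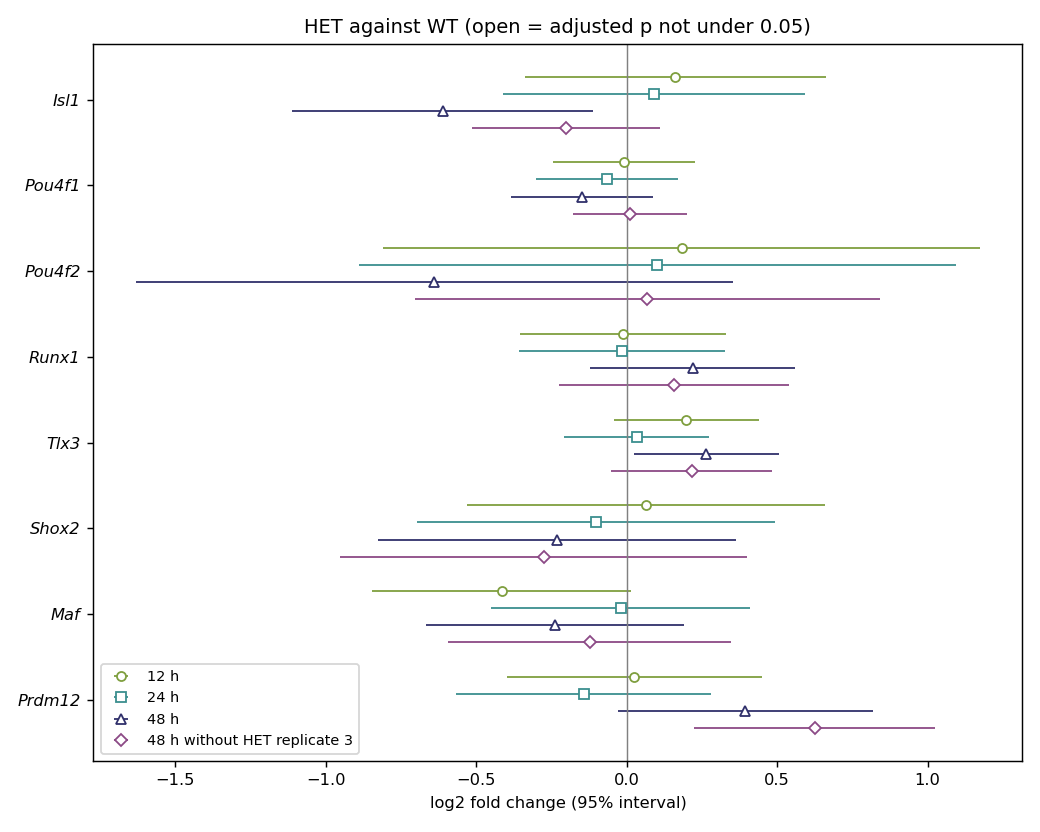
Log2 fold change of HET against WT with its 95% interval (x axis) for each member at 12, 24 and 48 h, and at 48 h without HET replicate 3. All marks are open, as no adjusted p in limma was under 0.05, and for Isl1 the 48 h value moves from -0.61 to -0.20 without that culture.

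Genes most like each member across the 18 samples were found by Pearson correlation of log2 values among 16135 genes with a mean normalized count of at least 10. Much of the spread of Isl1, Pou4f1 and Pou4f2 lies between 48 h and earlier, so these values describe a shared course. For Isl1 they were Cdk5, a kinase of postmitotic neurons (r = 0.990), Pdzrn3 (0.985) and the linker histone gene Hist1h1e (0.985). For Pou4f1 they were Tbc1d30 (0.963), 1810041L15Rik (0.948) and Mycn, a Myc-family transcription factor (0.946). For Pou4f2 they were Dph6 (0.962), the serotonin receptor gene Htr5b (0.957) and Dck, deoxycytidine kinase (0.955). Prdm12 was closest to Kbtbd11 (0.948), the synaptic adhesion gene Nlgn3 (0.942) and Kirrel3 (0.933). Runx1 was closest to Klf7, a zinc-finger factor of sensory neurons (0.914), Arfgef2 (0.903) and Dapk1 (0.886), and Tlx3 to Snx32 (0.931), Cdipt (0.899) and Stoml1 (0.876). Maf was closest to St3gal5 (0.917), Dcun1d4 (0.897) and Ak5 (0.876), and Shox2 to Gltpd1 (0.870), Cox14 (0.865) and Ppap2a (0.843).

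Of 23 measured other transcription factors of sensory neurons (25 listed), 11 passed at 48 h against 12 h in WT, beside 47.1% of all genes. They were 3 higher and 8 lower, where 30% and 17.1% of all genes were, with a median log2 fold change of 0.16 beside 0.11 over all genes. Etv1, an ETS factor of proprioceptors, had normalized counts of 990 ± 142 at 12 h and 210 ± 76.5 at 48 h (SD, n = 3 at each time), a change of -2.29 (SE 0.31, adjusted p = 5.17e-05, limma). Etv4, an ETS factor induced by neurotrophins, changed by 2.18 (SE 0.34), Zfhx3 by -1.40 (SE 0.31) and Runx3, the proprioceptor counterpart of Runx1, by -1.04 (SE 0.31). In HET 3 of 23 passed at 48 h with replicate 3 (2 higher and 1 lower; 14.2% of all genes) and 5 without it (4 higher and 1 lower; 28.4%). Etv4 (1.43 and 1.75), Hmx1 (0.77 and 0.93) and Etv1 (-1.18 and -1.52) were among them with and without it. At 24 h in HET 5 of 23 passed, beside 18.9% of all genes, 3 higher and 2 lower. Isl2, the paralog of Isl1, was one of the lower, at 5739 ± 1437 at 12 h and 2876 ± 458 at 24 h (SD, n = 3 at each time), a change of -0.98 (SE 0.21, adjusted p = 0.00560, limma). Isl2 thus fell at the time Prdm12 fell, while Isl1 did not pass. In WT 0 of 23 passed at 24 h, beside 3.62% of all genes. Without HET 48 h replicate 3, 2 did (Etv1 and Bcl11b, both lower), where 1119 of 17198 genes passed, 254 of them as lower.

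Cofactors that work with these proteins numbered 13, all measured. At 48 h in WT 6 passed, 5 higher and 1 lower, with a median of 0.21, which is near the 47.1% of all genes that passed (30% higher). Pbx3, a homeodomain partner, was at 562 ± 22.6 at 12 h and 1243 ± 272 at 48 h (SD, n = 3 at each time), a change of 1.12 (SE 0.18, adjusted p = 0.000140, limma). Cbfb, the partner subunit of Runx proteins, changed by 0.78 (SE 0.16) and the corepressor gene Tle3 by 0.61 (SE 0.15). The kinase gene Hipk2, whose protein binds Pou4f1, changed by -1.30 (SE 0.21). In HET 1 of 13 passed at 48 h with replicate 3 (10.6% of all genes were higher) and 4 without it (19.8%), all higher. Ehmt2, a histone H3 methyltransferase that Prdm12 recruits, was the one in both, at 0.39 (SE 0.10) with and 0.49 (SE 0.10) without it. At 24 h in HET 4 of 13 passed, all higher (13.1% of all genes were), and they were Tle3 (0.63), Pbx3 (0.61), Ehmt2 (0.34) and Ldb1, the LIM-domain adaptor of Isl1 (0.22). In WT at 24 h 0 of 13 passed, beside 3.62% of all genes.

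Genes reported as targets of the 8 factors numbered 19, all measured, and held neurotrophin receptors, ion channels, neuropeptides and itch receptors. Those that passed over time were all lower. At 48 h in WT they were 13 of 19, where 17.1% of all genes passed as lower, with a median of -0.97 beside 0.11 over all genes. The list was chosen with earlier results of these data known, so such counts only describe it. Mrgprd, a receptor of nonpeptidergic neurons that depends on Runx1, was at 4946 ± 1588 normalized counts at 12 h and 218 ± 155 at 48 h (SD, n = 3 at each time), a change of -4.74 (SE 0.68, adjusted p = 7.41e-05, limma). Mrgprb4 changed by -5.07 (SE 0.86), Mrgpra3 by -4.52 (SE 0.77) and the sodium channel gene Scn11a by -1.94 (SE 0.27). Over the same interval Runx1 itself did not pass. In HET 9 of 19 passed at 24 h (5.76% of all genes were lower) and 9 at 48 h (3.62%), and 10 at 48 h without replicate 3 (8.61%). At 48 h Mrgprd in HET changed by -2.49 with replicate 3 and -3.52 without it. At 24 h in WT 1 of 19 passed, beside 3.62% of all genes. It was Trpm8, the cold receptor channel, at -0.83 (SE 0.20, adjusted p = 0.0353, limma).

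Between genotypes the 3 lists depended on whether the 48 h pairs were used. The pairs were chosen from these same data, and the lists with earlier results of these data known. Without the replicate block 0 genes of these lists passed at any time or in the average over times, with all cultures or without HET 48 h replicate 3. With the block at 48 h, 12 of 19 targets passed, all higher in HET, where 12.3% of all genes passed (866 genes as higher). Without HET replicate 3 as well, 8 of 19 passed, all higher, where 3.86% did (301 genes as higher). In the block fits the target median at 48 h was 0.57 with that culture and 0.66 without it, beside -0.03 and -0.02 over all genes. Mrgprd, at 218 ± 155 normalized counts in WT and 2540 ± 3139 in HET at 48 h (SD, n = 3 in each), differed by 3.05 (SE 0.37, adjusted p = 0.00105, limma with the block), or 2.57 (SE 0.40, adjusted p = 0.0106) without HET replicate 3. Scn11a differed by 1.39 (SE 0.12), Mrgpra3 by 2.68 (SE 0.42) and Mrgprb4 by 2.01 (SE 0.51) with the block. Among the cofactors Pbx3 was lower (-0.71) and Ldb2 higher (0.43) with the block, and both also passed without HET replicate 3. Of the other factors 1 of 23 passed with the block, Etv1, higher by 1.14 (SE 0.25, adjusted p = 0.0136, limma), and 0 without HET replicate 3. In the same block fit with all cultures both red cell markers and Ltf, a neutrophil marker, were also higher in HET, and 3 of 4 cycling cell markers and Cd68 were lower. Without HET replicate 3 only Cd68 of these passed, at -1.09 (SE 0.27, adjusted p = 0.0497, limma). Their part in these differences was not tested. On the line through all genes, HET 48 h replicates 1, 2 and 3 lay at 0.76, 0.63 and 0.27. WT 48 h replicates 1, 2 and 3 lay farther along it, at 1.04, 1.16 and 0.81. The part of this position in the genotype differences at 48 h was not tested either.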

How the data were processed

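RNA-seq values of 18 cultures were read from 1 deposited table. Per the submitters' processing notes, CASAVA 1.8.2, edgeR and mm10 were used; the aligner, counting method and annotation are not given in the sources used here. Per the file headers, the authors deposited normalized counts, used here as a signal because they are not whole numbers, plain adjusted signal columns, FPKM, log2 fold changes, and p-values with FDR. FPKM was used for levels only. The authors' log2 fold changes and FDR were read for comparison. A further 24 columns of per-sample log ratios were not used. In the logarithms of the plain columns 2 directions among samples had no variation; the step that removed them is not given in the sources used here.

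Values were taken as log2(normalized count + 1), which understates changes of low genes. A filter kept genes whose mean was 1 or more; it removed 0 of 17198 and none of the 8 members. limma 3.58.1 in R 4.3.3 fitted 1 coefficient per group to all 18 samples by lmFit, then eBayes with a trend, which left 12 residual and added 5 prior degrees of freedom. Each of 9 comparisons was adjusted over all genes by Benjamini-Hochberg, and an adjusted p under 0.05 was called. The script was tested on simulated data.

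Replicate numbers come from the titles. Across genes, deviations of same-numbered WT and HET cultures correlated at 0.21 to 0.46 in the 3 pairs at 48 h, which were therefore taken as pairs. Deviations of the 3 cultures of a group from their mean cancel out, so these 3 correlations are not independent. The pairing was also chosen from the same values that the block fit then tested, so calls with the block depend on that choice. At 12 h (0.03 to 0.19) and 24 h (-0.21 to 0.26) 1 pair of 3 at each time was under 0.1, so the numbers were not taken as pairs there. The block fit nevertheless held a block for each number at 12, 24 and 48 h, and had 6 residual degrees of freedom. Its shared estimate of spread, and so its p-values at 48 h, therefore also rest on the 12 h and 24 h blocks.

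The members and the gene lists were chosen with earlier results of these data known. Genes were named by rule: the 8 members, Dynlrb1, the 3 genes most correlated with each member, and up to 4 genes per list and comparison with the largest change past the threshold. Those correlations came from all 18 samples. Alternatives were another pseudocount, other filters, other scalings, only the samples compared, the removed directions as covariates, the replicate block, and leaving out each culture. A count test could not be run, as no column held counts. The result of 1 cofactor gene between genotypes is not reported here.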

Additional observations from a re-analysis of the deposited data

How the results depend on the processing

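The 8 log2 fold changes in 9 comparisons were refitted under each alternative. Members past the threshold numbered 0 in all genotype comparisons and in the genotype difference in the time change, except 1 (Isl1) at 48 h with the replicate block, alone or with the removed directions, and 1 (Prdm12) with the block and without HET 48 h replicate 3. Of 17198 genes, 2120 passed at 48 h with the block, 1953 with block and directions, and 663 with the block and without HET 48 h replicate 3. From 12 to 24 h in WT the member count of 0 became 2 with the replicate block (Maf and Prdm12) and 1 with only the samples compared. It became 1 with removed directions and 3 with both the block and removed directions, as Isl1 then also passed as higher (0.41). The count over all genes went from 622 to 1621, 839, 1132 and 2447 in the same order. From 12 to 24 h in HET the 1 became 2 with block and directions, as Isl1 also passed as higher (0.32). The count over all genes went there from 3252 to 5900. At 48 against 12 h in HET the 1 became 3 with the block, with or without removed directions, and 0 with only the samples compared. Over all genes 2442 passed there in the main fit, 5301 with the block and 4998 with block and directions. With only the samples compared 0 of all genes passed, so the 0 is not particular to the members. The numbers pair the samples at 48 h between genotypes only, so the block values over time carry no pairing. Leaving out 1 culture gave 0 to 1 from 12 to 24 h in WT, 0 to 1 from 12 to 24 h in HET, 3 to 4 at 48 against 12 h in WT, and 0 to 3 at 48 against 12 h in HET. Over all genes these fits called 0 to 1119, 1141 to 3970, 6038 to 8457 and 0 to 4886 in that order. Quantile normalization also gave 4 at 48 against 12 h in WT, adding Maf, where 7652 of all genes passed.

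Signs reversed only for values past no threshold. On plain adjusted columns at 12 h, HET against WT became 0.0092 for Pou4f1 and 0.0064 for Runx1. With removed directions it became 0.0062 for Runx1 and -0.032 for Prdm12 at 12 h, 0.031 for Pou4f1, 0.096 for Maf and 0.058 for Prdm12 at 24 h, and the WT change of Isl1 at 24 h became -0.045. With block and removed directions together, Prdm12 became -0.0080 at 12 h between genotypes, 0.32 at 48 against 12 h in WT and -0.058 in HET, Shox2 -0.083 at 24 h in WT, and Runx1 0.014 at 48 h in HET. The following 2 forms of block were chosen after seeing the data. A block by genotype and number gave 0.066 for Pou4f1 in the genotype difference of the 48 h change, and the block without HET 48 h replicate 3 gave 0.073 for Pou4f1 at 48 h.

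Leaving out each culture reversed 32 of 72 values in at least 1 of 18 fits. For HET against WT at 12 h the ranges were -0.042 to 0.015 for Pou4f1, -0.095 to 0.51 for Pou4f2, -0.067 to 0.083 for Prdm12, -0.17 to 0.22 for Runx1 and -0.35 to 0.32 for Shox2. For 24 against 12 h in WT the ranges were -0.065 to 0.32 for Runx1, -0.52 to 0.074 for Pou4f2 and -0.33 to 0.34 for Shox2. For 48 against 12 h in WT the ranges were -0.16 to 0.52 for Shox2 and -0.29 to 0.040 for Prdm12. For the genotype difference in the 48 h change the ranges were -0.0030 to 0.39 for Runx1, -0.55 to 0.12 for Shox2, -0.016 to 0.17 for Tlx3 and -0.25 to 0.020 for Pou4f1. For HET against WT at 24 h the ranges were -0.091 to 0.31 for Pou4f2, -0.19 to 0.034 for Shox2, -0.053 to 0.23 for Isl1, -0.13 to 0.087 for Runx1, -0.0042 to 0.10 for Tlx3, -0.13 to 0.076 for Maf and -0.14 to 0.0092 for Pou4f1. For 24 against 12 h in HET the ranges were -0.25 to 0.042 for Shox2 and -0.025 to 0.16 for Runx1. For 48 against 12 h in HET the ranges were -0.21 to 0.085 for Shox2, -0.16 to 0.020 for Tlx3, -0.12 to 0.011 for Runx1 and -0.044 to 0.49 for Prdm12. For HET against WT averaged over times the ranges were -0.0086 to 0.17 for Prdm12, -0.20 to 0.016 for Isl1 and -0.27 to 0.12 for Pou4f2. For HET against WT at 48 h the ranges were -0.25 to 0.011 for Pou4f1 and -1.10 to 0.068 for Pou4f2. The cause of these changes was not tested. The depth of the libraries is unknown, groups of 3 leave wide intervals for Shox2 and Pou4f2, and no count test was possible.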
